A study of Homo sapiens with 9 samples.

Results

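The MHC class II genes and their transactivator Ciita were measured by RNA sequencing in 9 murine orthotopic tumors of anaplastic thyroid cancer (ATC). The genes were listed by symbol, with earlier results of these data known, as H2-Aa, H2-Ab1, H2-Eb1, H2-DMa, H2-DMb1, H2-Oa, Cd74 and Ciita. Of these 8 listed genes, 7 had a row among the 17369 genes of the expression table used here, and Cd74 was not analysed here. Of the 7, 6 had at least 1 FPKM in at least 3 tumors and were tested among the 10263 genes that met this filter. H2-Oa did not meet it and is given by its values.

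MHC class II molecules are paired α and β chains that carry peptides from endocytosed proteins to the surface of dendritic cells, macrophages and B cells, where the T cell receptor of CD4+ T cells reads them. H2-Aa and H2-Ab1 encode the chains of I-A and H2-Eb1 the β chain of I-E, while Cd74 is the invariant chain that holds the groove until the endosome is reached. H2-DMa and H2-DMb1 form H2-DM, which exchanges the invariant chain fragment for peptide, and H2-Oa is a chain of H2-O, an inhibitor of H2-DM found chiefly in B cells and some dendritic cells. Ciita does not bind DNA itself but is recruited to class II promoters by the RFX, NF-Y and CREB factors, and its level limits class II transcription. It is made constitutively in antigen-presenting cells and can be induced in other cells, including epithelial tumor cells, by interferon-γ. C57BL/6 and B6129SF1 mice share the H2b haplotype, in which I-A is the class II molecule displayed, because the α chain gene of I-E is not transcribed.

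TBP3743 is an ATC cell line from B6129SF1 mice with mutant Braf and a Trp53 deletion, both restricted to the thyroid, and all 9 tumors derive from this 1 line. Adapted TBP3743 cells were recovered after serial subcutaneous passage through C57BL/6 mice, in which the largest tumor was carried forward, and were used here after adaptation passage 3. B6129SF1 mice, the strain the line came from, are hybrids with a C57BL/6 parent. The 3 groups, each of 3 tumors, were named by cells and host. Original cells grew in B6129SF1 mice (original/B6129SF1), and adapted cells grew either in B6129SF1 mice (adapted/B6129SF1) or in C57BL/6 mice (adapted/C57BL/6). The hosts were immunocompetent females aged 6 weeks at intrathyroidal injection, and tumors were taken after 14 days with no drug treatment stated for them. The adapted/B6129SF1 and original/B6129SF1 groups share the host and differ in the cells, the adapted/C57BL/6 and adapted/B6129SF1 groups share the cells and differ in the host, and the adapted/C57BL/6 and original/B6129SF1 groups differ in both.

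Values were deposited as FPKM, fragments scaled by transcript length and by library. Levels were compared between genes and between tumors on this scale, although the details of the library scaling are not given in the sources used here. Read counts were not used here and the depth is unknown. The labels call the tissue cancer epithelium, and the epithelial keratin Krt8 (153 to 615 FPKM) and the thyroid factor Nkx2-1 (23.5 to 44.5 FPKM) were present in every tumor, whereas Epcam was at most 2.49 FPKM, Pax8 at most 1.61 and Tshr at most 0.0703. Krt8 fell by 1.32 (limma adjusted p = 0.0189) and 1.12 (adjusted p = 0.0346) on the log2 scale in the adapted/B6129SF1 and adapted/C57BL/6 tumors against original/B6129SF1, as the 1 DEG among 6 thyroid and epithelial genes tested. DEGs in the lower direction made up 0.857% and 0.672% of all genes tested in these comparisons. The tumors also held host cells, as the pan-leukocyte gene Ptprc ran from 11.6 to 35.6 FPKM. In bulk RNA, fewer cells of a type and less RNA per cell cannot be told apart. Adapted/B6129SF1 replicate 3 and adapted/C57BL/6 replicate 1 stood apart by skeletal muscle transcripts, which took 6.74% and 1.31% of their FPKM. The fits of the tested class II genes were repeated without these 2 tumors. Ratios, correlations, list counts and marker values were not. None of the 13 muscle genes tested, nor of 8 endothelial and fibroblast genes, was a DEG by limma in any comparison, and at an unadjusted p under 0.05 no muscle gene passed, while 2 endothelial or fibroblast genes did in each adapted group against original/B6129SF1. Both were higher, as were 12.2% (adapted/B6129SF1) and 11.5% (adapted/C57BL/6) of all genes tested at that p. The median log2 fold change of the muscle genes was 3.57 in adapted/B6129SF1 and 2.12 in adapted/C57BL/6 against original/B6129SF1, and -1.62 between the adapted groups, the same order of groups as the class II genes. Summed muscle FPKM within the adapted/B6129SF1 group was 731, 17.4 and 36450 in replicates 1, 2 and 3, and its part in the class II levels was not tested beyond the fits without these 2 tumors.

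The class II chain genes were among the more abundant transcripts of these tumors, and they were highest in the adapted/B6129SF1 group. H2-Aa, the α chain of I-A, was at 98.4, 86.2 and 113 FPKM in the 3 original/B6129SF1 tumors, 284, 716 and 839 in the adapted/B6129SF1 tumors, and 243, 103 and 201 in the adapted/C57BL/6 tumors. Every adapted/B6129SF1 tumor lay above all others, while the lowest adapted/C57BL/6 tumor fell among the original/B6129SF1 tumors. H2-Ab1, the β chain of I-A, was at 95.4, 68.6 and 112 FPKM in the original/B6129SF1 group, 248, 738 and 662 in the adapted/B6129SF1 group, and 248, 118 and 196 in the adapted/C57BL/6 group. Here adapted/B6129SF1 replicate 1 was just below adapted/C57BL/6 replicate 1, and both adapted groups lay wholly above the original/B6129SF1 group. H2-Eb1, the β chain of I-E, was at 50.6, 42.3 and 62.3 FPKM, then 155, 440 and 410, and then 144, 58.7 and 102, in the same order of groups. Its tumors ranked as those of H2-Aa did, except that adapted/B6129SF1 replicate 2 and not replicate 3 was highest. Among the 17369 genes, the median rank of H2-Aa by FPKM was 693 in the original/B6129SF1 group, 100 in the adapted/B6129SF1 group and 348 in the adapted/C57BL/6 group.

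The H2-DM genes, which load peptide onto the chains, followed the same order at a lower level. H2-DMa was at 20.8, 16.7 and 22.9 FPKM in the original/B6129SF1 tumors, 39.5, 85.3 and 85.2 in the adapted/B6129SF1 tumors, and 50.4, 24.5 and 46.2 in the adapted/C57BL/6 tumors. H2-DMb1 was at 21.3, 15.5 and 17.4 FPKM, then 33.8, 81.7 and 72.7, and then 36.8, 21.5 and 35.7. For both genes all 6 adapted tumors lay above the original/B6129SF1 tumors, and adapted/B6129SF1 replicate 1 lay among the adapted/C57BL/6 tumors. H2-DMb1 has a near-identical neighbour, H2-DMb2, and how reads were divided between them is not given in the sources used here. H2-DMb2 was at 1.30 to 4.11 FPKM over the 9 tumors and was not a DEG in any comparison (limma adjusted p of 0.537, 0.815 and 0.947), and its level was low beside that of H2-DMb1.

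Ciita, the regulator, was low in level and ordered like its targets. It was at 1.12, 0.749 and 0.971 FPKM in the original/B6129SF1 tumors, 2.60, 7.47 and 5.20 in the adapted/B6129SF1 tumors, and 2.34, 1.63 and 2.33 in the adapted/C57BL/6 tumors, so the 3 groups did not overlap. H2-Oa, the H2-O chain, did not share this order. It was at 0.670, 0.638 and 0.815 FPKM in the original/B6129SF1 group, 0.328, 1.45 and 1.92 in the adapted/B6129SF1 group, and 0.727, 0.520 and 0.714 in the adapted/C57BL/6 group. The adapted/B6129SF1 group thus held both the highest and the lowest values of H2-Oa, and exact two-sided permutation tests on log2(FPKM + 1) gave p = 0.4 for adapted/B6129SF1 against original/B6129SF1, 0.6 for adapted/C57BL/6 against original/B6129SF1 and 0.4 for adapted/C57BL/6 against adapted/B6129SF1. Its partner H2-Ob was at 0.144 to 0.752 FPKM and H2-Eb2 at 0.0110 to 0.0594, both too low to be tested.

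**Figure D1:**
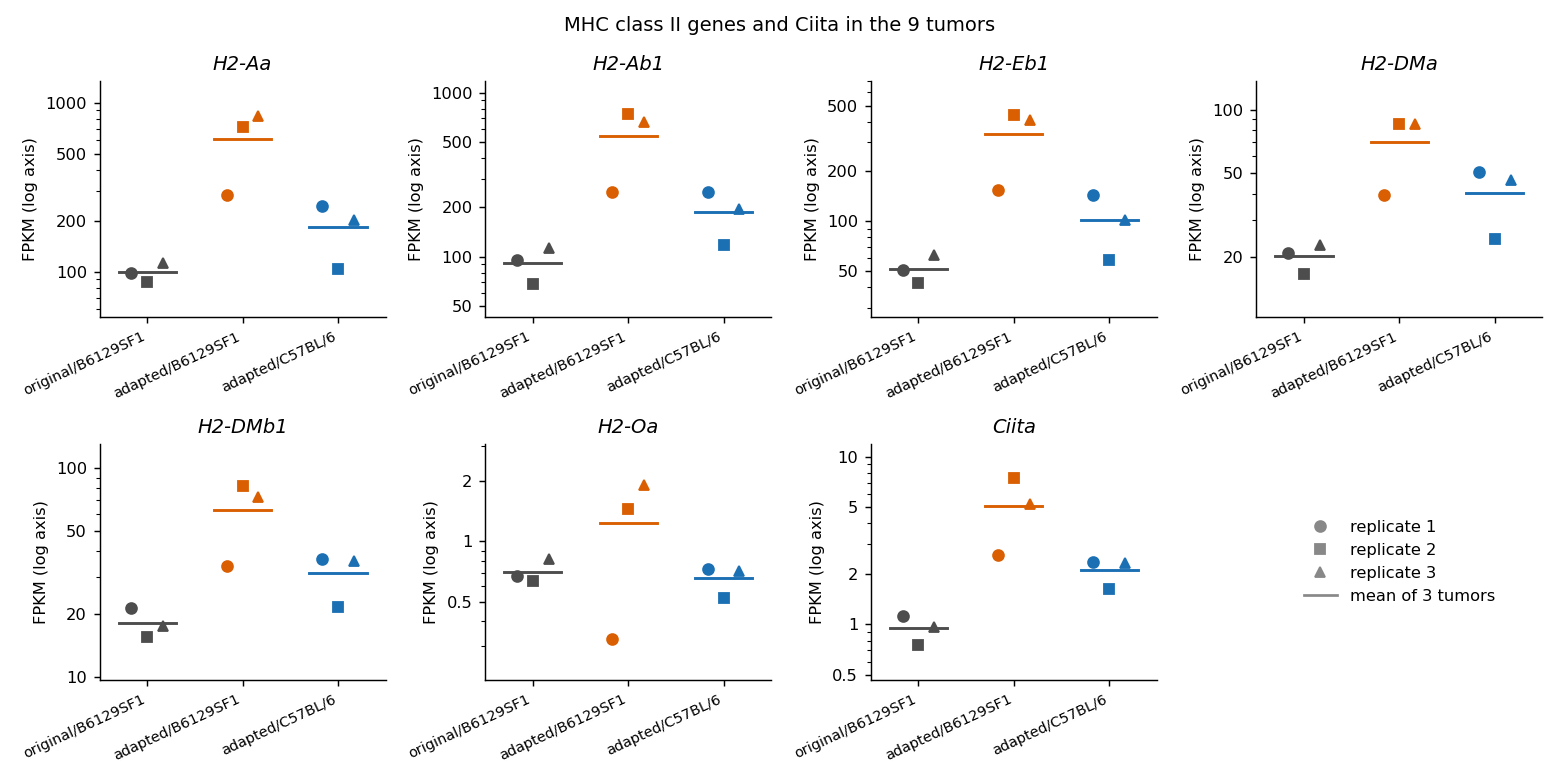
FPKM of the 7 genes with a row in the table, in each tumor, on logarithmic axes that differ between panels; marker shape gives the replicate number and the horizontal line the mean of the 3 tumors. H2-Aa ran from 86.2 to 113 FPKM in the original/B6129SF1 group, 284 to 839 in the adapted/B6129SF1 group and 103 to 243 in the adapted/C57BL/6 group, and every gene except H2-Oa had this order of group means.

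Adapted cells against original cells in the same host gave the largest class II difference of the 3 comparisons. All 6 tested genes were up-regulated DEGs in the adapted/B6129SF1 group, where a DEG was a gene with an adjusted p under 0.05 and a log2 fold change beyond 1 in either direction in limma on log2(FPKM + 1). Mean FPKM rose from 99.2 ± 13.4 (SD, n = 3) to 613 ± 292 for H2-Aa, a ratio of 6.18, from 92.0 ± 22.0 to 549 ± 264 for H2-Ab1, a ratio of 5.97, and from 51.8 ± 10.04 to 335 ± 157 for H2-Eb1, a ratio of 6.47. The H2-DM genes rose less, with ratios of 3.48 for H2-DMa (20.1 ± 3.18 to 70.0 ± 26.4) and 3.47 for H2-DMb1 (18.1 ± 2.94 to 62.7 ± 25.4). Ciita rose from 0.948 ± 0.189 to 5.09 ± 2.44 FPKM, a ratio of 5.37.

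On the tested scale, the log2 fold changes in the adapted/B6129SF1 group were 2.48 for H2-Aa (SE 0.43, adjusted p = 0.0133), 2.44 for H2-Ab1 (SE 0.43, adjusted p = 0.0141) and 2.55 for H2-Eb1 (SE 0.43, adjusted p = 0.0129). They were 1.68 for H2-DMa (SE 0.35, adjusted p = 0.0238), 1.66 for H2-DMb1 (SE 0.33, adjusted p = 0.0213) and 1.56 for Ciita (SE 0.28, adjusted p = 0.0159). The scale adds 1 to each FPKM and understates the change of a gene as low as Ciita. Their median was 2.06, against -0.03 over all genes tested, and 2.36% of all genes tested were DEGs in this direction. The 2 groups did not overlap for any of the 6 genes, which held for 13.6% of all genes in this direction. With 3 tumors a group, an exact permutation test of 1 gene cannot give a p below 0.1, the value that each of the 6 reached.

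The call depended on the tumors for the H2-DM genes and, less often, for Ciita and H2-Aa. The number of DEGs among the 6 was 4 without original/B6129SF1 replicate 1, original/B6129SF1 replicate 2, adapted/B6129SF1 replicate 2 or adapted/B6129SF1 replicate 3, with H2-DMa and H2-DMb1 lost each time. It was 2 without original/B6129SF1 replicate 3, when H2-Ab1 (adjusted p = 0.0469) and H2-Eb1 (0.0438) kept the call and H2-Aa reached 0.0504. Without both tumors with muscle RNA it was 3, with H2-Aa (2.18), H2-Ab1 (2.23) and H2-Eb1 (2.33) called and Ciita at a log2 fold change of 1.51 with an adjusted p of 0.0534. The direction was the same in every one of these fits.

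Adapted cells in C57BL/6 mice against original cells in B6129SF1 mice, a comparison that shares the original/B6129SF1 tumors with the one above, gave smaller values. None of the 6 genes was a DEG by limma, against 2.42% of all genes tested that were DEGs in the higher direction, although all 6 fold changes were positive. The ratios of mean FPKM were 1.84 for H2-Aa (182 ± 71.9 in the adapted/C57BL/6 group), 2.04 for H2-Ab1 (187 ± 65.6), 1.96 for H2-Eb1 (102 ± 42.7), 2.00 for H2-DMa (40.4 ± 13.9), 1.74 for H2-DMb1 (31.3 ± 8.53) and 2.21 for Ciita (2.10 ± 0.409). The log2 fold changes ran from 0.67 for Ciita to 0.98 for H2-Ab1, with a median of 0.84 against -0.03 over all genes. The adjusted p ran from 0.149 for H2-DMa to 0.298 for H2-Aa.

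The intervals of these differences were wide. The 95% confidence interval on the log2 scale was -0.18 to 1.77 for H2-Aa, 0.13 to 1.70 for H2-DMa and 0.02 to 1.31 for Ciita. At an unadjusted p under 0.05, 3 of the 6 genes passed, namely H2-Ab1, H2-DMa and Ciita, as did 11.5% of all genes tested in this direction. For 4 of the 6 genes, these 3 and H2-DMb1, the adapted/C57BL/6 tumors lay wholly above the original/B6129SF1 tumors, as for 14.9% of all genes. H2-Aa and H2-Eb1 overlapped because adapted/C57BL/6 replicate 2 fell below original/B6129SF1 replicate 3. No tumor left out made any of the 6 a DEG here.

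The host comparison, adapted/C57BL/6 against adapted/B6129SF1, put all 6 genes lower in C57BL/6 mice, by amounts that no test adjusted over all genes called. The adapted/C57BL/6 mean was 0.298 of the adapted/B6129SF1 mean for H2-Aa, 0.341 for H2-Ab1, 0.303 for H2-Eb1, 0.577 for H2-DMa, 0.499 for H2-DMb1 and 0.412 for Ciita. The log2 differences were -1.69 for H2-Aa (95% interval -2.66 to -0.71), -1.66 for H2-Eb1 (-2.64 to -0.68), -1.46 for H2-Ab1 (-2.44 to -0.48), -0.92 for H2-DMb1 (-1.67 to -0.17), -0.90 for Ciita (-1.54 to -0.25) and -0.76 for H2-DMa (-1.55 to 0.02). Their median was -1.19, against 0.01 over all genes tested.

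By limma the adjusted p of these differences ran from 0.538 for H2-Aa to 0.81 for H2-DMa, and 3 of the 10263 genes (0.0292%) were DEGs in the lower direction. At an unadjusted p under 0.05, 5 of the 6 genes were lower, all but H2-DMa, compared with 3.02% of all genes tested. The adapted/C57BL/6 tumors lay wholly below the adapted/B6129SF1 tumors for H2-Aa, H2-Eb1 and Ciita, as they did for 5.42% of all genes. For H2-Ab1, H2-DMa and H2-DMb1 the groups overlapped through adapted/B6129SF1 replicate 1. Leaving out both tumors with muscle RNA gave differences from -1.74 for H2-Eb1 to -0.77 for H2-DMa, again none of them called.

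**Figure D2:**
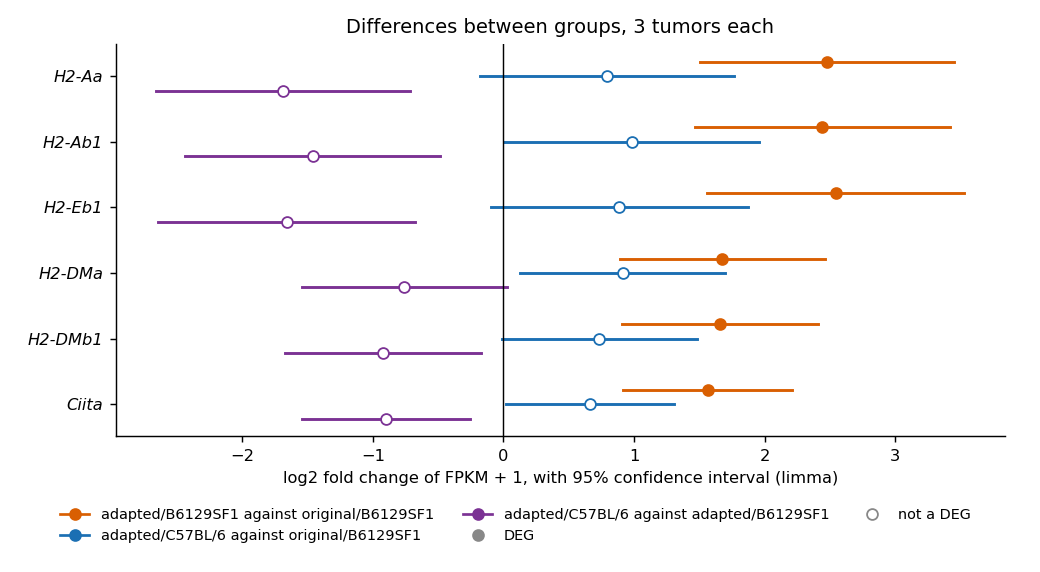
Log2 fold change of FPKM + 1 (points) with its 95% confidence interval (lines) from limma for the 6 tested genes in the 3 comparisons, filled where the gene was a DEG. The 6 filled points, at 1.56 to 2.55, all belong to adapted/B6129SF1 against original/B6129SF1, the points of adapted/C57BL/6 against original/B6129SF1 lie at 0.67 to 0.98, and those of adapted/C57BL/6 against adapted/B6129SF1 lie at -1.69 to -0.76.

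The class II genes moved together from tumor to tumor as well as between groups. Over the 9 tumors, Pearson's r of log2(FPKM + 1) between 2 of the 6 tested genes ran from 0.958 to 0.996 over the 15 pairs. After the group means were taken out it ran from 0.833 to 0.989. These are descriptions over the same 9 libraries, so the points also share any library effect. Within the adapted/B6129SF1 group the coefficient of variation was 37.7% for H2-DMa and 48.1% for H2-Ab1, the lowest and highest of the 6, against 13.5% for H2-Aa and 23.9% for H2-Ab1 in the original/B6129SF1 group. The summed FPKM of the 7 genes was 762 in adapted/B6129SF1 replicate 1 but 2070 and 2077 in the other adapted/B6129SF1 tumors, and 328 in adapted/C57BL/6 replicate 2 but 726 and 584 in the other adapted/C57BL/6 tumors. In the original/B6129SF1 group it ran from 231 to 330.

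Some proportions within the set were steadier than the levels, but H2-Oa to H2-DMb1 was not. The ratios given here, other than H2-Oa to H2-DMb1, were chosen after their values were seen. H2-Aa to H2-Ab1, the chains of I-A, was 0.873 to 1.27 over all tumors, and H2-Eb1 to H2-Ab1 was 0.497 to 0.625. H2-Ab1 to Ciita was 84.8 to 116 in the original/B6129SF1 group, 95.3 to 127 in the adapted/B6129SF1 group and 72.5 to 106 in the adapted/C57BL/6 group, so target and regulator kept overlapping ratios in the 3 groups. H2-DMb1 to H2-Ab1 was lower in the adapted/B6129SF1 group (0.1098 to 0.137) than in the original/B6129SF1 (0.155 to 0.226) and adapted/C57BL/6 (0.148 to 0.182) groups, with no overlap. H2-Oa to H2-DMb1, the inhibitor against the exchange factor, was 0.0315 to 0.0468 in the original/B6129SF1 group, 0.0097 to 0.0264 in the adapted/B6129SF1 group and 0.0198 to 0.0242 in the adapted/C57BL/6 group.

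No factor that recruits Ciita to class II promoters passed the test. Rfx5, Rfxap and Rfxank of the RFX complex, Nfya, Nfyb and Nfyc of NF-Y and Creb1 were all tested. By limma, 0 of the 7 were DEGs in any comparison. Against original/B6129SF1, 2.36% (adapted/B6129SF1) and 2.42% (adapted/C57BL/6) of all genes tested were DEGs in the higher direction. A count of 0 among 7 genes cannot be set apart from such shares. At an unadjusted p under 0.05 none passed in adapted/B6129SF1 against original/B6129SF1. In adapted/C57BL/6 against original/B6129SF1, 2 passed, Rfx5 higher and Nfya lower, beside 11.5% and 12.8% of all genes in these directions. Between the adapted groups 1 passed, Rfxap, lower, beside 3.02% of all genes. Their median log2 fold changes were 0.03 in the adapted/B6129SF1 group and -0.07 in the adapted/C57BL/6 group against original/B6129SF1. Rfx5, with the largest positive value, was at 8.03, 7.37 and 7.22 FPKM in the original/B6129SF1 group, 10.6, 9.14 and 7.51 in the adapted/B6129SF1 group and 9.02, 11.3 and 9.94 in the adapted/C57BL/6 group (log2 fold change 0.23 with an adjusted p of 0.308, and 0.37 with 0.133 against original/B6129SF1). The other 6 lay between -0.14 and 0.21 in the adapted/B6129SF1 group and between -0.37 and 0.10 in the adapted/C57BL/6 group, where Nfya was lowest (adjusted p = 0.156). Ciita itself was a DEG in the adapted/B6129SF1 group, as given above.

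Upstream of Ciita, Ifng and Irf1 were ordered differently from the class II genes, while Ifngr1 and Irf2 had their highest mean in the adapted/B6129SF1 group as the class II genes did. Ifng itself was at 0.216, 0.107 and 0.202 FPKM in the original/B6129SF1 tumors, 0.158, 1.504 and 0.524 in the adapted/B6129SF1 tumors, and 2.71, 1.45 and 2.72 in the adapted/C57BL/6 tumors. The adapted/C57BL/6 group was high throughout apart from replicate 2, which lay just below adapted/B6129SF1 replicate 2, while adapted/B6129SF1 replicate 1, the lowest class II tumor of its group, stayed at the original/B6129SF1 level. Ifng was a DEG in the adapted/C57BL/6 group (log2 fold change 1.46, adjusted p = 0.023) and not in the adapted/B6129SF1 group (0.48, adjusted p = 0.324), and its difference between the adapted groups was 0.98 (adjusted p = 0.602). Irf1, which acts at the inducible Ciita promoter, was at 30.3 to 39.7, 42.5 to 67.4 and 82.4 to 117 FPKM, and was a DEG in the adapted/C57BL/6 group (1.46, adjusted p = 0.00527) and not in the adapted/B6129SF1 group (0.68, adjusted p = 0.073).

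Of the other genes of this upstream list, the myeloid factor Irf8 was a DEG in both adapted groups (1.02 on the log2 scale with a limma adjusted p of 0.0109, and 1.20 with 0.00527). The receptor chain Ifngr1 had mean levels of 61.0, 80.5 and 61.8 FPKM in the original/B6129SF1, adapted/B6129SF1 and adapted/C57BL/6 groups, and the transcription factor Irf2 had 18.7, 25.5 and 23.1. In the adapted/B6129SF1 group their log2 fold changes were 0.39 (limma adjusted p = 0.0962) and 0.42 (adjusted p = 0.0632), and neither was a DEG in any comparison. The receptor chain Ifngr2, the kinases Jak1 and Jak2 and the inhibitor Socs1 were DEGs in neither. Of 10 interferon-γ targets outside antigen presentation, the chemokine Cxcl9, the guanylate-binding protein Gbp2 and the GTPase Iigp1 among them, 8 were up-regulated DEGs in the adapted/B6129SF1 group and 9 in the adapted/C57BL/6 group. The shares of all genes tested that were DEGs in this direction were 2.36% and 2.42%. The median log2 fold changes of the 10 targets were 1.56 and 2.37. In adapted/C57BL/6 against adapted/B6129SF1 their median was 0.89, with 9 of 10 values positive, 8 past an unadjusted p under 0.05 and 0 DEGs. Of all genes tested, 3.24% were higher at that p and 0 were DEGs in the higher direction. All 6 tested class II genes, Ciita included, had negative values in that host comparison.

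MHC class I genes, which present peptides from inside the cell to CD8+ T cells and are driven by Nlrc5, a relative of Ciita, did not share the class II order either. Nlrc5 was at 6.79, 2.29 and 4.20 FPKM in the original/B6129SF1 tumors, 9.14, 12.9 and 12.7 in the adapted/B6129SF1 tumors, and 14.7, 18.9 and 20.7 in the adapted/C57BL/6 tumors, so the adapted/C57BL/6 group was the highest. It rose by 1.29 (adjusted p = 0.0319) and 1.89 (adjusted p = 0.00767) on the log2 scale in the adapted/B6129SF1 and adapted/C57BL/6 groups. Of 9 class I genes tested, including H2-K1, B2m, Tap1 and Psmb8, 6 were up-regulated DEGs in the adapted/B6129SF1 group and 9 in the adapted/C57BL/6 group, with medians of 1.29 and 1.49. DEGs in this direction made up 2.36% and 2.42% of all genes tested. In adapted/C57BL/6 against adapted/B6129SF1 all 9 values were positive, with a median of 0.33, 1 past an unadjusted p under 0.05 and 0 DEGs. There, 3.24% of all genes tested were higher at that p and 0 were DEGs in the higher direction.

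The ratio of the transactivators set both patterns in 1 number for each tumor. Ciita to Nlrc5 was 0.166, 0.327 and 0.231 in the original/B6129SF1 tumors, 0.284, 0.577 and 0.409 in the adapted/B6129SF1 tumors, and 0.160, 0.0861 and 0.113 in the adapted/C57BL/6 tumors. The adapted/C57BL/6 tumors lay below all 6 tumors grown in B6129SF1 mice. H2-Ab1 to the class I chain H2-K1 was 0.150, 0.187 and 0.234, then 0.277, 0.536 and 0.474, and then 0.223, 0.0824 and 0.127. On this ratio the adapted/B6129SF1 group lay above the other groups, which overlapped. These ratios were not tested.

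**Figure D3:**
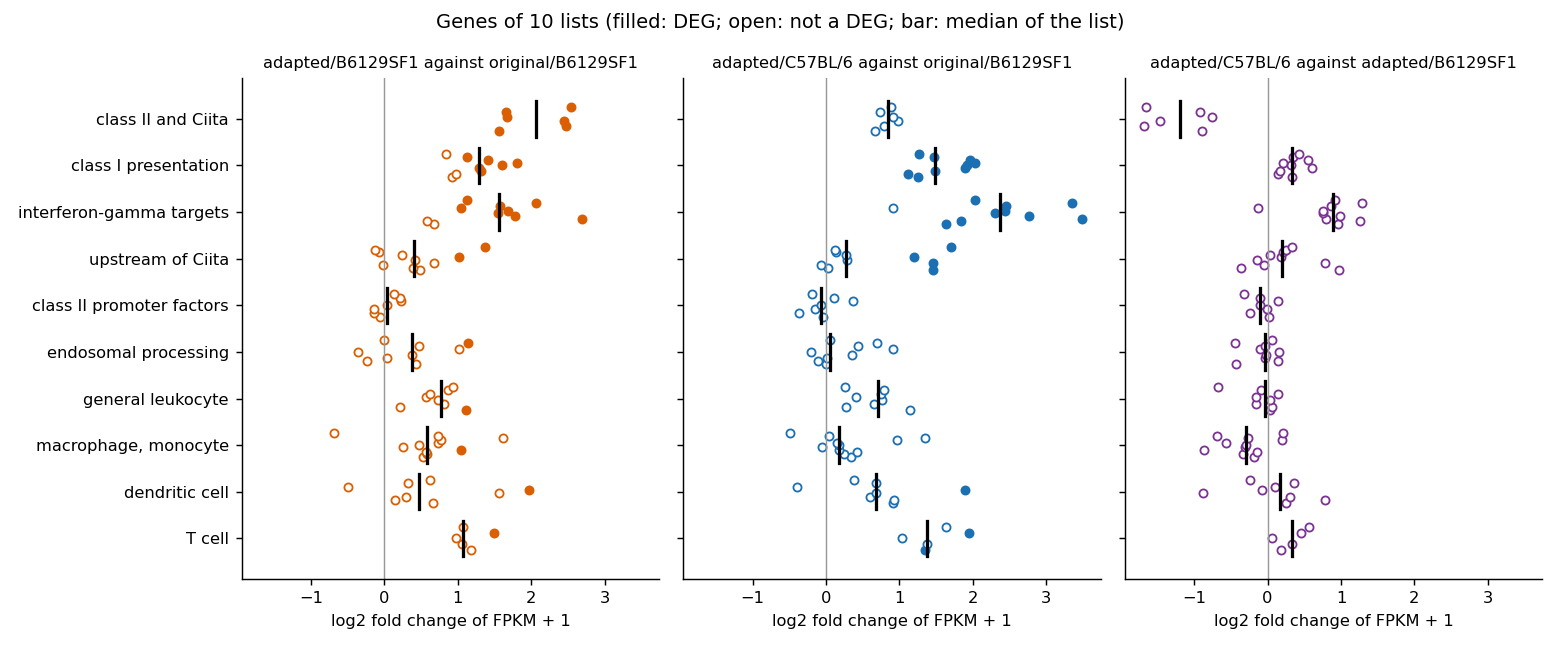
Log2 fold change of FPKM + 1 for each tested gene of 10 lists in the 3 comparisons, filled where the gene was a DEG, with a vertical bar at the list's median. Of the 10 lists shown, which leave out skeletal muscle among others, the class II genes and Ciita have the highest median in adapted/B6129SF1 against original/B6129SF1 (2.06) and the lowest in adapted/C57BL/6 against adapted/B6129SF1 (-1.19), where the interferon-γ targets have 0.89 and the class I genes 0.33.

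Among transcripts of the endosome, where class II is loaded, 1 gene passed the test. Against original/B6129SF1, 2.36% (adapted/B6129SF1) and 2.42% (adapted/C57BL/6) of all genes tested were DEGs in the higher direction. At an unadjusted p under 0.05 the shares were 12.2% and 11.5%. Of 9 genes for proteases, their inhibitor Cst3 and the thiol reductase, 1 rose in the adapted/B6129SF1 group and 0 in the adapted/C57BL/6 group by limma (3 in each at an unadjusted p under 0.05), with medians of 0.38 and 0.06. The gene was Ifi30, the lysosomal thiol reductase that unfolds antigens, at 133, 153 and 144 FPKM in the original/B6129SF1 group, 300, 372 and 283 in the adapted/B6129SF1 group and 292, 151 and 285 in the adapted/C57BL/6 group (log2 fold change 1.14, adjusted p = 0.0251 in the adapted/B6129SF1 group). Cathepsin S (Ctss), which trims the invariant chain in antigen-presenting cells, had log2 fold changes of 1.01 (adjusted p = 0.0521) and 0.91 (adjusted p = 0.0772), and Ctsl, Ctsb, Ctsd and Lgmn lay between -0.36 and 0.06 in both. Cd83, which keeps class II at the surface of dendritic cells, was at 0.727 to 2.44 FPKM and was not a DEG.

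Among 6 genes for receptors of class II and the costimulators shown beside it, Lag3 rose in both adapted groups. DEGs in the higher direction made up 2.36% (adapted/B6129SF1) and 2.42% (adapted/C57BL/6) of all genes tested against original/B6129SF1. Lag3, an inhibitory receptor of T cells that binds class II, was at 1.02, 1.30 and 1.15 FPKM in the original/B6129SF1 tumors, 2.85, 4.63 and 3.63 in the adapted/B6129SF1 tumors, and 4.72, 3.74 and 4.12 in the adapted/C57BL/6 tumors (log2 fold change 1.11 with an adjusted p of 0.00761, and 1.27 with 0.00424). Cd4, the coreceptor of class II-restricted T cells, was at 0.351 to 0.951 FPKM in the original/B6129SF1 group, 0.764 to 2.57 in the adapted/B6129SF1 group and 1.58 to 2.14 in the adapted/C57BL/6 group, with log2 fold changes of 0.68 (adjusted p = 0.151) and 0.84 (adjusted p = 0.0959). Cd80, Cd86, Cd40 and Icosl did not pass the test in either group. Of these, Cd40 had log2 fold changes of 1.04 (limma adjusted p = 0.0692) and 1.18 (adjusted p = 0.0521). At an unadjusted p under 0.05, 3 and 4 of the 6 genes were higher, beside 12.2% and 11.5% of all genes tested. All 6 fold changes were positive in both adapted groups.

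The markers of class II-bearing cells moved with the class II genes in part. Against original/B6129SF1, 2.36% (adapted/B6129SF1) and 2.42% (adapted/C57BL/6) of all genes tested were DEGs in the higher direction. At an unadjusted p under 0.05 the shares were 12.2% and 11.5%. Macrophage and monocyte genes summed to 1321 to 1842 FPKM in the original/B6129SF1 group, 1959 to 2473 in the adapted/B6129SF1 group and 1162 to 2563 in the adapted/C57BL/6 group, and 1 of the 11 tested was a DEG in the adapted/B6129SF1 group and 0 in the adapted/C57BL/6 group (5 and 2 at an unadjusted p under 0.05), with medians of 0.58 and 0.18. That gene was Ccr2, the receptor that brings monocytes into tissue, at 21.1, 18.8 and 17.9 FPKM in the original/B6129SF1 tumors, 26.0, 50.9 and 50.4 in the adapted/B6129SF1 tumors and 18.6, 22.6 and 24.9 in the adapted/C57BL/6 tumors (1.04, adjusted p = 0.0342). Adapted/B6129SF1 replicate 1 was again the lowest of its group. Csf1r, the macrophage growth factor receptor, was at 59.9, 65.1 and 69.2 FPKM, then 102, 104 and 116, and then 95.2, 43.8 and 89.2, with adapted/C57BL/6 replicate 2, the lowest class II tumor of that group, the lowest of all 9. Mean Mrc1 (167, 104 and 117 FPKM) and Fcgr1 (17.7, 30.8 and 36.1) did not follow the class II order. In adapted/C57BL/6 against adapted/B6129SF1, 9 of the 11 macrophage and monocyte genes were lower and 2 higher, with a median of -0.29. None was a DEG (0.0292% of all genes in that direction), and 2 were lower at an unadjusted p under 0.05 (3.02%), Ccr2 and Mertk. The dendritic, leukocyte and T cell medians between the adapted groups were 0.18, -0.03 and 0.33.

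In adapted/B6129SF1 and adapted/C57BL/6 against original/B6129SF1, 2.36% and 2.42% of all genes tested were DEGs in the higher direction. At an unadjusted p under 0.05, 12.2% and 11.5% were higher and 14.4% and 12.8% lower. Of 8 dendritic cell markers tested, 1 was a DEG in each adapted group, 4 and 5 were higher and 1 was lower in each at an unadjusted p under 0.05, and the medians were 0.47 and 0.68. The DEG was Clec9a, a receptor of cross-presenting dendritic cells, at 0.154 to 0.416 FPKM in the original/B6129SF1 group, 6.15, 3.46 and 2.75 in the 3 adapted/B6129SF1 tumors and 2.99 to 4.71 in the adapted/C57BL/6 group (log2 fold change 1.96 with an adjusted p of 0.00512, and 1.89 with 0.00449). Zbtb46, a dendritic cell transcription factor, was at 0.567 to 0.990 FPKM, 1.38 to 2.17 and 1.13 to 1.40 (adjusted p = 0.0553 and 0.202). Flt3, Xcr1, Cd209a and Siglech were too low to be tested. The summed FPKM of the dendritic list, which is mostly Fscn1, was 116 to 140 in the original/B6129SF1 group, 101 to 120 in the adapted/B6129SF1 group and 102 to 117 in the adapted/C57BL/6 group. B cell markers were close to 0, with a summed level of 7 genes of 0.566 to 2.16 FPKM over the 9 tumors, Ms4a1 at most 0.133 and Pax5 at most 0.0876.

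General leukocyte genes summed to 375 to 448 FPKM in the original/B6129SF1 group, 587 to 828 in the adapted/B6129SF1 group and 478 to 910 in the adapted/C57BL/6 group. Of 8 tested, Cd52 was a DEG in the adapted/B6129SF1 group (1.12, adjusted p = 0.0491) and 0 were in the adapted/C57BL/6 group (7 and 5 at an unadjusted p under 0.05), with medians of 0.77 and 0.70. The shares of all genes tested in this direction were 2.36% and 2.42% for DEGs, and 12.2% and 11.5% at an unadjusted p under 0.05. T cell genes summed to 3.61 to 5.19 FPKM in the original/B6129SF1 group, to 5.90, 26.4 and 23.3 in the adapted/B6129SF1 tumors, and to 17.5 to 25.9 in the adapted/C57BL/6 group. Of 5 tested, 1 (Cd3g) was a DEG in the adapted/B6129SF1 group and 2 (Cd3g and Cd2) in the adapted/C57BL/6 group, beside the same 2.36% and 2.42% of all genes, with medians of 1.07 and 1.38. All 5 were higher in both groups at an unadjusted p under 0.05, beside the same 12.2% and 11.5% of all genes. Adapted/B6129SF1 replicate 1 was thus low in T cell genes and in Ifng as well as in class II, but it had the highest Clec9a of its group, and the macrophage sum was lowest in replicate 2 (1959 FPKM, against 2348 in replicate 1 and 2473 in replicate 3). The part of these cells in the class II levels was not tested.

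Set against leukocyte and macrophage genes of the same tumor, H2-Ab1 was on average highest in the adapted/B6129SF1 group. H2-Ab1 to Ptprc was 5.80, 5.92 and 5.98 in the original/B6129SF1 tumors, 11.3, 23.4 and 19.2 in the adapted/B6129SF1 tumors, and 6.98, 6.70 and 6.20 in the adapted/C57BL/6 tumors. The original/B6129SF1 and adapted/C57BL/6 tumors thus lay between 5.80 and 6.98, although their Ptprc ran from 11.6 to 35.6 FPKM. H2-Ab1 to Csf1r was 1.59, 1.05 and 1.62, then 2.42, 7.10 and 5.69, and then 2.61, 2.69 and 2.19, so on this ratio adapted/B6129SF1 replicate 1 lay among the adapted/C57BL/6 tumors and both adapted groups lay above the original/B6129SF1 group. These are descriptions with no test.

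**Figure D4:**
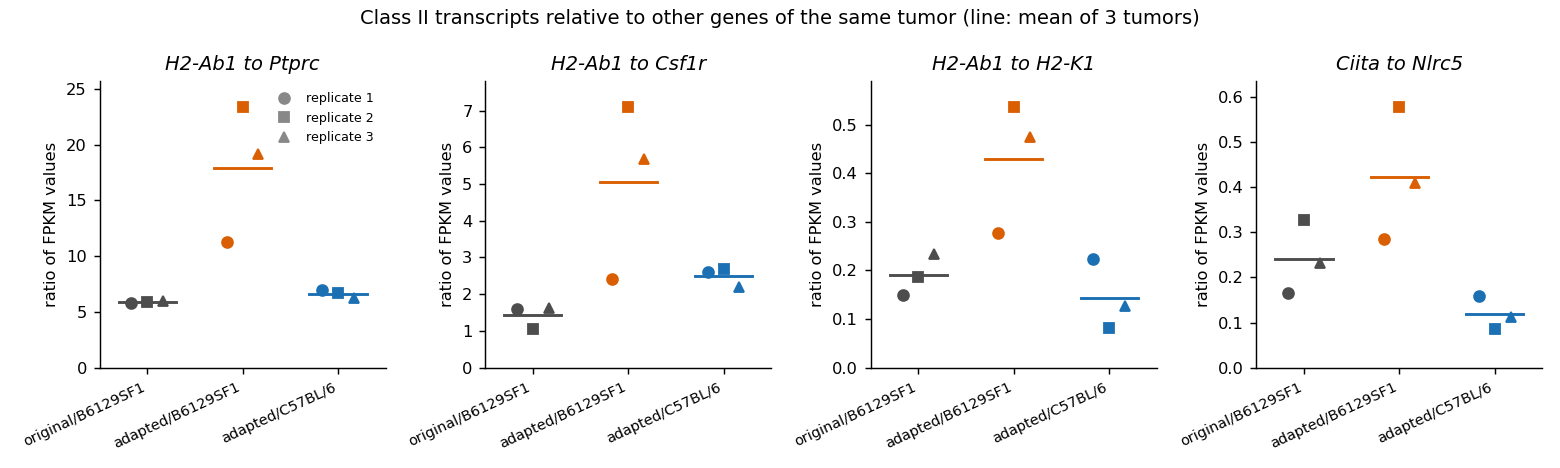
Ratios of FPKM within each tumor on linear axes from 0, for H2-Ab1 to Ptprc, H2-Ab1 to Csf1r, H2-Ab1 to H2-K1 and Ciita to Nlrc5; marker shape gives the replicate number and the line the mean of 3 tumors. H2-Ab1 to Ptprc lies at 5.80 to 6.98 in the original/B6129SF1 and adapted/C57BL/6 tumors and at 11.3 to 23.4 in the adapted/B6129SF1 tumors, and Ciita to Nlrc5 is lowest in the adapted/C57BL/6 tumors, at 0.0861 to 0.160.

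The other tested genes were ranked by how like their profile was to the mean of the 6 tested class II genes. The 6 genes, which make up that mean (r of 0.983 to 0.998), were not ranked. Likeness was Pearson's r of log2(FPKM + 1) over the 9 tumors. The highest values were those of Bcat2 (0.974), a mitochondrial aminotransferase of branched-chain amino acids, Ppfia4 (0.971), Rinl (0.965), the phosphatase Ptpn18 (0.963) and Zfp385a (0.960). None of these was on the antigen presentation lists. Those lists hold few of the 10263 genes tested, so no conclusion is drawn from their absence. Ptpn18 was at 7.04, 8.06 and 8.57 FPKM in the original/B6129SF1 tumors, 13.95, 19.1 and 20.2 in the adapted/B6129SF1 tumors, and 12.1, 7.17 and 12.5 in the adapted/C57BL/6 tumors, and was a DEG in the adapted/B6129SF1 group (1.06, adjusted p = 0.0213). The other 4 had smaller log2 fold changes in that group, from 0.42 for Bcat2 to 0.78 for Rinl, with adjusted p of 0.0562 to 0.087. Of the listed genes, Rac2, a GTPase of blood cells, had r = 0.903, Ccr2 0.894, Ifi30 0.878, Ptprc 0.840 and Csf1r 0.818. Nlrc5 had r = 0.540 and Ifng 0.351.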

How the data were processed

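RNA of 9 mouse tumors (3 groups of 3) was measured by paired-end sequencing, and groups and replicate numbers came from the labels. The sample labels give the organism as human, whereas the cell line, hosts, gene symbols and the mm10 build are those of mouse. Per the submitters' notes and the study's methods, the authors used FastQC, HISAT2 and mm10, and deposited FPKM from Cuffnorm for the 9 tumors together. The gene annotation and Cuffnorm scaling are not given in the sources used here. The summed FPKM of a tumor ran from 457983 to 540514, which is not a depth, and no pair of tumors had identical values for more than 0.0487% of tested genes. The authors' Cuffdiff test needs reads and was not repeated.

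Tests used log2(FPKM + 1). The genes that reached 1 FPKM in 3 or more tumors were fitted with limma 3.58.1 in R 4.3.3 (lmFit, eBayes with trend) in one model of the 3 groups, with 6 residual degrees of freedom and Benjamini-Hochberg adjustment over all 10263 genes. A DEG needed an adjusted p under 0.05 and a log2 fold change beyond 1 in either direction. Single values were compared by exact two-sided permutation tests. The procedure was tested on simulated data. The number of tumors limits the precision.

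The class II genes and the 16 other lists were chosen by hand with earlier results of these data known. Named genes are these, genes of the lists and the 5 other tested genes most like the mean class II profile. Lists are described by counts and medians, with no list test. Alternatives were other pseudocounts, filters, scalings, fold thresholds and variance models, only the groups compared, a replicate block, each tumor left out, and both tumors with muscle RNA left out. Cd74, and sequences or coordinates of the mouse genes, were not analysed here. Values of some listed genes are not reported here.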

Additional observations from a re-analysis of the deposited data

How the results depend on the processing

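Over 107 refitted values of the 6 genes in each comparison, which leave out limma's treat test, none changed sign. For adapted/B6129SF1 against original/B6129SF1 the log2 fold changes ran from 1.28 to 3.03 and 17 of these values lost the call, with adjusted p up to 0.0757. H2-Ab1 and H2-Eb1 kept the call in 18 of these 18 settings, H2-Aa in 17, Ciita in 15 of 17, and H2-DMa and H2-DMb1 in 11 of 18 each. Their 6 calls became 2 to 6 when 1 tumor was left out, 3 without both tumors with muscle RNA, 5 with a mean of at least 5 FPKM (which removes Ciita) and 0 with limma's treat test against a log2 fold change of 1, under which H2-Ab1 and H2-Eb1 also lost the call. In the other comparisons no setting gave a call.

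The 330 DEGs of adapted/B6129SF1 against original/B6129SF1 became 219 with a mean of at least 5 FPKM, 850 by adjusted p alone, 3 by treat and 141 to 358 with 1 tumor left out (141 without original/B6129SF1 replicate 3). The 317 of adapted/C57BL/6 against original/B6129SF1 became 199, 693, 7 and 156 to 347 (156 without adapted/C57BL/6 replicate 3, 177 without original/B6129SF1 replicate 3). The 3 of adapted/C57BL/6 against adapted/B6129SF1 became 1 with no filter, 0 with a mean of at least 5 FPKM, with only the groups compared, or by treat, and 0 to 6 with 1 tumor left out. The causes were not tested.

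Tumors that share a number came from separate mice, and the mean correlations of their deviations from group means (-0.0976, 0.161 and -0.0124) did not show a pairing. With the replicate number as a block, 4 of the 6 genes were called in adapted/B6129SF1 against original/B6129SF1 (H2-DMa at 0.0519 and H2-DMb1 at 0.0559 were not), and the DEGs numbered 242, 245 and 0. The log2 ratio of H2-Oa to H2-DMb1, 0.36 higher in adapted/C57BL/6 than in adapted/B6129SF1, ran from -0.0269 without adapted/B6129SF1 replicate 1 to 0.694 without adapted/B6129SF1 replicate 3. H2-Oa was below the filter on low values. With no filter its log2 fold changes were 0.31, -0.05 and -0.36, with adjusted p of 0.523, 0.963 and 0.901.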
